A study of Mus musculus with 2 samples.

Results

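The ATP-binding cassette (ABC) transporter genes of CMT93 cells were taken as the array genes whose names run from Abca to Abcg followed by a number and, in some, the letter a or b. The rule gave 50 of 34648 gene names on the array, on 73 probes, in 7 subfamilies: 16 genes in A, 10 in B, 10 in C, 4 in D, 1 in E, 3 in F and 6 in G. It used gene names only and no measured value. CMT93 is an established mouse carcinoma line, labelled as colon carcinoma from the rectum of a 19 month old C57BL/ICRF animal. One array held cells kept for 24 h with 3 µg/mL of lipopolysaccharide (LPS, a glycolipid that Gram-negative bacteria carry on their surface), and the other held control cells of the line, both grown in DMEM. The comparison asks how the ABC transporter transcripts stand in LPS-treated cells relative to control cells. There was 1 array a group, so no value below was checked in a replicate and no test was possible.

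ABC transporters are membrane proteins that use ATP to carry lipids, bile salts, drugs, conjugates, peptides and metal cofactors across a membrane. Subfamily A moves lipids. Subfamily B holds the P-glycoprotein drug pumps and several mitochondrial carriers, subfamily C the multidrug resistance proteins and the sulphonylurea receptors, subfamily D the peroxisomal fatty acid carriers, and subfamily G sterol and drug pumps. Proteins of subfamilies E and F have the ATP-binding domains but no membrane part and act on ribosomes. In the gut epithelium the drug pumps of the apical membrane keep xenobiotics out of the body, and basolateral members pass bile salts and conjugates towards the blood.

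The differences rest on few probes, so the sequences that carry them are shown first, as the first 30 of the 60 bases of each probe, 5′ to 3′. They belong to the members that differed most and to 3 neighbouring genes on chromosome 5.
Abcc3: aacagagaccctgtactggtgctgtctgag
Abcc1: cctacttatgagcatcgtttcgtggagaag
Abcb1a: actcagacatgggcacctgagttcagatcc
Abcb1b: tccaggctggagcaaagcgctcatgagctg
Abcb4: agctgctggcgcagaagggcatctatttct
On mm9, the build the file headers name, these probes lie at chr11:94204612-94204671 on the minus strand for Abcc3, chr16:14474551-14474610 on the plus strand for Abcc1, and chr5:8748075-8748134, chr5:8865925-8865984 and chr5:8959108-8959167, all on the plus strand, for Abcb1a, Abcb1b and Abcb4. No mm9 annotation was used here, so the exon or UTR under each probe is not given. The 3 genes on chromosome 5 encode related proteins, and the longest stretch shared by any 2 of their probes was 7 bases. Over all 1225 pairs of members, the brightest probes shared at most 12 bases. Probes were compared with each other only. Whether a probe also reads the transcript of a related gene was not tested.

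Most of the family was either read at nearly the same level in both cultures or not detected. A member was called detected where its brightest probe was well above background by the scanner software's flag. By that rule 28 members (56.0%) were detected on both arrays, 1 on the LPS array only (1.5% of gene names with an NM, or curated RefSeq mRNA, accession were), 1 on the control array only (1.98% were) and 20 on neither. For comparison, 65.8% of the 19475 gene names with an NM accession, and 58.7% of all gene names, were detected on both arrays. Detection differed between subfamilies. It reached 8 of 10 genes in B, 6 of 10 in C, 3 of 4 in D, the single gene of E and 3 of 3 in F, against 5 of 16 in A and 2 of 6 in G. The lowest signal of any member detected on both arrays was 129 intensity units, against a lowest signal well above background of 16.9 on the LPS array and 15.9 on the control array, so the 28 stood clear of that limit.

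**Figure D1:**
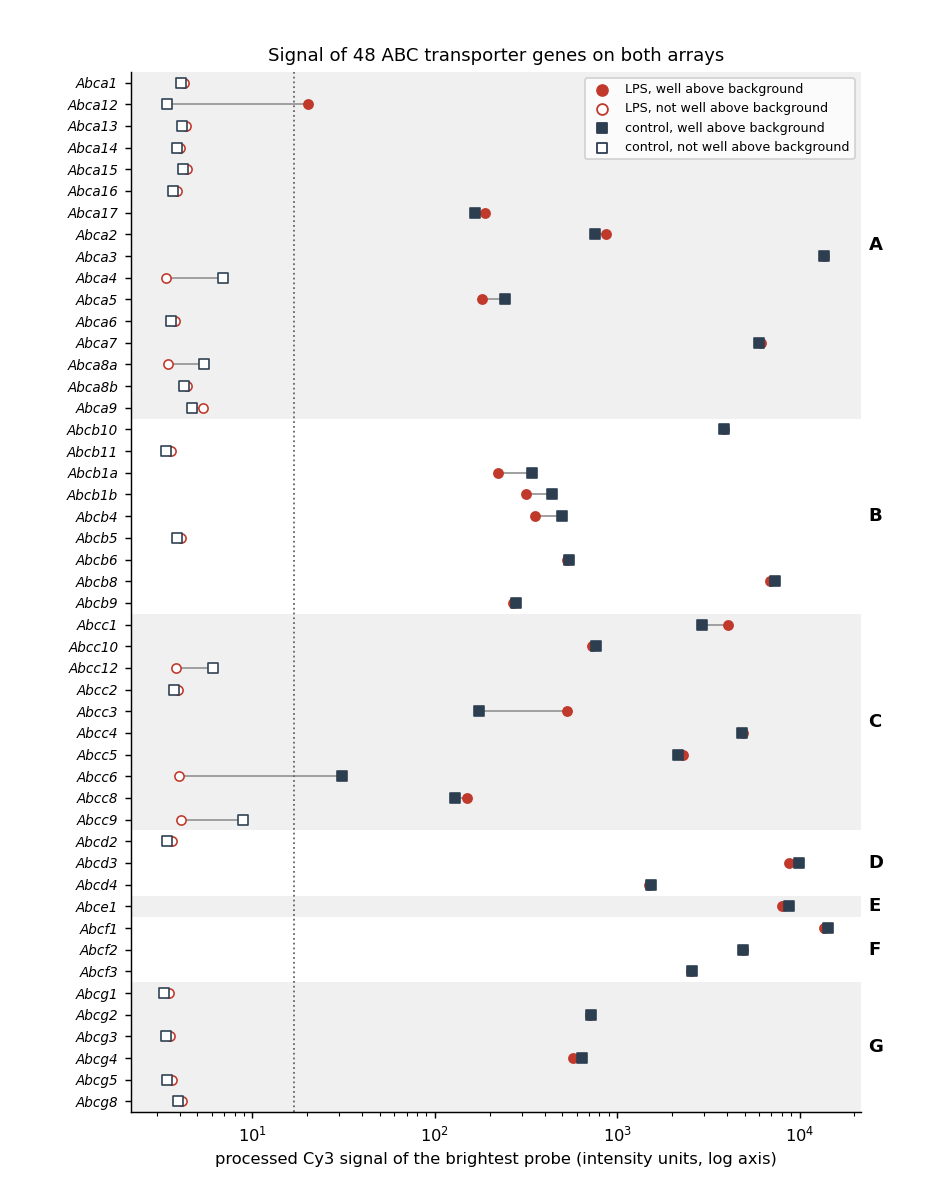
Processed Cy3 signal (intensity units, log axis) of the brightest probe of 48 ABC transporter genes, by subfamily A to G, with circles for the LPS array and squares for the control array and open symbols where the probe was not well above background. The dotted line marks the lowest signal well above background on the LPS array, 16.9. Abcc3 shows the widest gap among the members detected on both arrays. Signals of different genes come from different probes and are not comparable.

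The signals were set on a common scale by each array's 75th percentile, which was 631 on the LPS array and 651 on the control array. Differences below are log2 values, LPS minus control. The error after ± is the median SD over spots of probes printed 8 to 10 times at similar brightness, which was 0.22 at signals under 100, 0.075 at 100 to 1000, 0.040 at 1000 to 10000 and 0.027 above. It covers the slide only, not the cultures.

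Over the 28 members the median difference was 0.020, and over all 20328 genes detected on both arrays it was -0.021. Of the 28, 17 (60.7%) were above 0, against 44.5% of all genes. Within 0.25 of 0 lay 21 (75%), against 75.5% of all genes, so by that share alone the family was spread much as the array was. At least 2-fold higher was 1 member, Abcc3 (1.46% of all genes were), and none was at least 2-fold lower (0.571% of all genes were). At least 1.5-fold higher was again Abcc3 alone (3.59% of all genes were), and none was 1.5-fold lower (2.68% of all genes were). A single member past a threshold does not set the family apart from the array. Of the 7 members that differed by 0.25 or more, 3 were higher (Abcc3, Abcc1 and Abcc8) and 4 were lower (Abcb1a, Abcb1b, Abcb4 and Abca5). In bulk RNA, a change in the number of cells that hold a transcript and a change in RNA per cell cannot be told apart.

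**Figure D2:**
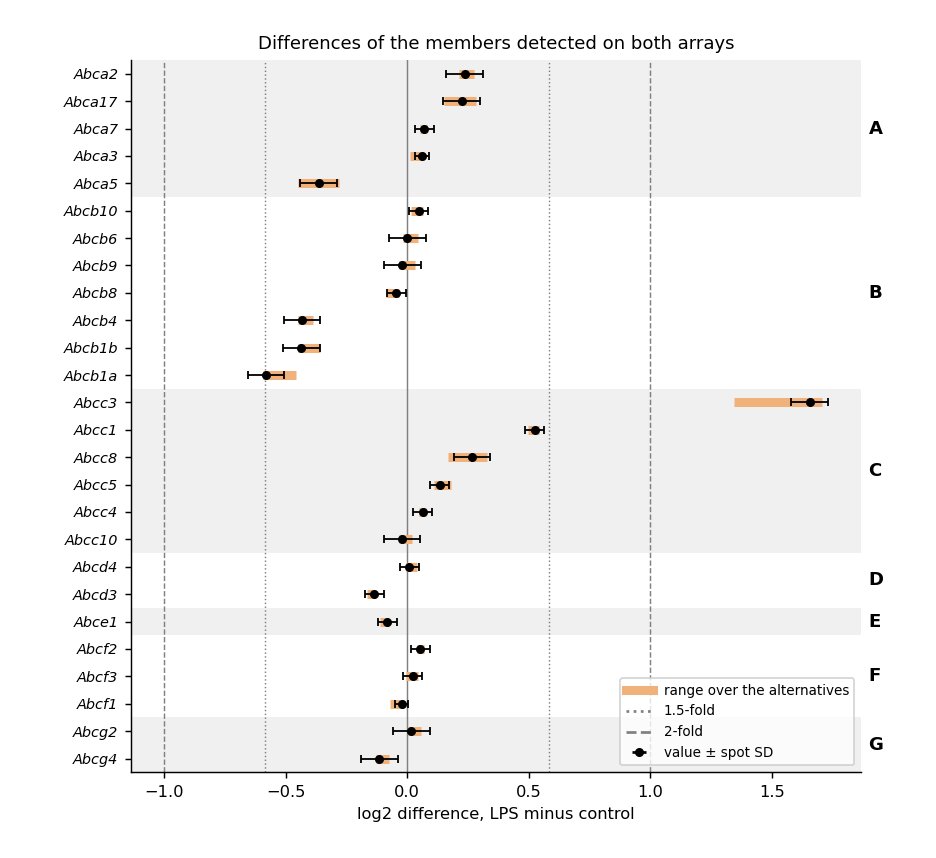
Log2 difference, LPS minus control, of 26 ABC transporter genes detected on both arrays, by subfamily. Points are values with the spot SD, orange bars span the values over the alternative processings, and lines mark 1.5-fold and 2-fold. Abcc3 stands at 1.66, beyond 2-fold throughout its range, while Abcb1a at -0.58 lies at the 1.5-fold line.

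The largest difference was that of Abcc3, which encodes multidrug resistance-associated protein 3, an exporter of bile salts and glucuronides in the basolateral membrane of hepatocytes and enterocytes. Its probe had a signal of 531 on the LPS array and 174 on the control array. LPS-treated cells were thus 3.15-fold higher, a log2 difference of 1.66 ± 0.075, which is 22.1 times the spot SD. Of all genes detected on both arrays, 99.4% had a lower signed difference. Abcc3 had 1 probe and 1 spot, so no other probe bears on it. With normexp background correction, which adds an offset and so pulls dim probes towards 0, its difference was 1.34.

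Abcc1, which encodes multidrug resistance-associated protein 1, an exporter of glutathione conjugates and leukotriene C4, came next. Its signal was 4072 on the LPS array and 2921 on the control array. The difference of 0.52 ± 0.040 is 1.44-fold, just inside 1.5-fold, and 95.6% of all genes had a lower one. Among the 13 members with a signal of 1000 or more it was the highest, and the other 12 lay between -0.14 and 0.13. Abcc5, an exporter of cyclic nucleotides, was printed on 10 spots, which read 2194 to 2447 on the LPS array and 2028 to 2318 on the control array. The 2 ranges overlap, and the spots' own differences ran from 0.065 to 0.20 with a mean of 0.13 and an SD of 0.046.

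The other members of subfamily C differed less or were dim. Abcc8, the sulphonylurea receptor SUR1 of ATP-sensitive potassium channels, had a signal of 150 on the LPS array and 129 on the control array, a difference of 0.27 ± 0.075. With normexp its difference was 0.17, under 0.25. Abcc4, an exporter of cyclic nucleotides and prostanoids, read 4876 with LPS and 4811 in control cells (0.064 ± 0.040). Abcc10 read 728 with LPS and 762 in control cells (-0.021 ± 0.075). Those 2 members thus differed by less than 0.1 on the log2 scale. Abcc6, whose loss causes ectopic mineralisation, was detected on the control array only, with a signal of 3.98 on the LPS array and 31.1 on the control array. It was at least 1.78-fold lower with LPS, setting the control signal against the lowest signal well above background on the LPS array. With normexp that bound was 1.20-fold. A second Abcc6 probe was well above background on neither array. Abcc2, the apical conjugate pump, and Abcc9 and Abcc12 were detected on neither array. The median of the 6 members of C detected on both arrays was 0.20.

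In subfamily B, 3 members were lower together. These are Abcb1a and Abcb1b, the genes of mouse P-glycoprotein, the drug efflux pump, and Abcb4, whose product moves phosphatidylcholine into bile. Abcb1a had a signal of 221 on the LPS array and 341 on the control array. Abcb1b had 315 on the LPS array and 440 on the control array, and Abcb4 had 357 on the LPS array and 497 on the control array. Each was lower with LPS, at -0.58 ± 0.075, -0.44 ± 0.075 and -0.43 ± 0.075, or 1.496-fold, 1.35-fold and 1.35-fold lower. The differences are 7.75, 5.81 and 5.78 times the spot SD, each from 1 spot. That SD is a median, and the highest at this brightness was 0.17. Of all genes detected on both arrays, 2.73% were lower than Abcb1a, 5.01% lower than Abcb1b and 5.07% lower than Abcb4. Abcb1a thus stood just short of 1.5-fold. Abcb1a and Abcb1b had 1 probe each, and the second Abcb4 probe was well above background on neither array.

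These 3 genes follow one another on chromosome 5 with no other protein-coding gene between them in the RefSeq table of GRCm38.p6, and their probes span 211.1 kb on mm9. Their promoters are shown because the members differed the same way. Each is the 250 bases before the start site from RefSeq on GRCm38.p6, plus strand, and capitals mark CCAAT and GGGCGG, the letters of the CCAAT box and the GC box, on either strand.
Abcb1a: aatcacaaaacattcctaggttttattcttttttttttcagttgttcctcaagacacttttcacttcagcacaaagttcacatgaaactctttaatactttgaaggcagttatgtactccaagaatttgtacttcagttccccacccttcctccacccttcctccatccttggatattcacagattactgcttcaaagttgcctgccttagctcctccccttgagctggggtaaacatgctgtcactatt
Abcb1b: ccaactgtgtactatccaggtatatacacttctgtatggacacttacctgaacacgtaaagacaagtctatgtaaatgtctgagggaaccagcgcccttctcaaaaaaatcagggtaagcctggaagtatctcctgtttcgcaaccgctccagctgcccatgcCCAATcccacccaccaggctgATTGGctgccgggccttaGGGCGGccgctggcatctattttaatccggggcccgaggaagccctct
Abcb4: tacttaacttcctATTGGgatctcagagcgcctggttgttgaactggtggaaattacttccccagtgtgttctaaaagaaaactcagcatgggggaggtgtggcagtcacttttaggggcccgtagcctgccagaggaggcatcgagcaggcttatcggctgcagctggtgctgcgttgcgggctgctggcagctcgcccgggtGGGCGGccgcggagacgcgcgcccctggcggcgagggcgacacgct
They lie at chr5:8566841-8567090, chr5:8797897-8798146 and chr5:8893471-8893720. The Abcb1b window held CCAAT on the plus strand from base -87 and on the minus strand from base -66, and GGGCGG from base -48, counted from the start site. The Abcb4 window held CCAAT on the minus strand from base -237 and GGGCGG from base -46, and the Abcb1a window held neither. For each gene only the start site shown was searched, so a window before any other start was not read. Over 32841 promoters of the same length, 33.9% held CCAAT and 32.7% held GGGCGG. None of the 3 windows held TATAAA, the NF-kB core (GGG and CC with 5 bases between) or the antioxidant response core written TGACNNNGC, which 12.4%, 45.8% and 10.2% of all promoters held. These motifs do not overlap in the windows shown, and a match is a description of letters only. The table held a promoter for 38 of the 50 members.

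The mitochondrial members of subfamily B stood near 0. Abcb10, needed for haem synthesis in red cell precursors, read 3862 with LPS and 3854 in control cells (0.048 ± 0.040). The mitochondrial carrier Abcb8 was at -0.045 ± 0.040 and the porphyrin carrier Abcb6 at 0.00085 ± 0.075. Abcb9, a lysosomal peptide carrier, was at -0.020 ± 0.075. Abcb11, the bile salt export pump of the liver, and Abcb5 were detected on neither array.

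Subfamily A was mostly not detected. Abca1, which loads cholesterol onto apolipoprotein A-I, was well above background on neither array, with signals of 4.24 on the LPS array and 4.05 on the control array. Among detected members, Abca3, which fills the lamellar bodies of lung cells with surfactant lipid, read 13693 with LPS and 13547 in control cells (0.060 ± 0.027). Abca7, a phospholipid carrier, read 6126 with LPS and 6018 in control cells (0.070 ± 0.040). Both differed by less than 0.1. Abca2, a lysosomal lipid carrier studied in the brain, read 864 with LPS and 756 in control cells (0.24 ± 0.075), and Abca17 was at 0.22 ± 0.075. Abca5, also lysosomal, was the one detected member of the subfamily below 0, with a signal of 182 on the LPS array and 242 on the control array (-0.36 ± 0.075). Abca12, which loads glucosylceramide into the lamellar granules of skin cells, was detected on the LPS array only. Its signal was 20.2 on the LPS array and 3.38 on the control array, at least 1.31-fold higher with LPS, and at least 1.17-fold with normexp. This is close to the background limit.

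The other 9 undetected members of A were Abca4, the retinoid carrier of the retina, Abca6, Abca8a, Abca8b, Abca9, Abca13, Abca14, Abca15 and Abca16. They include 4 of the 5 members that lie side by side on chromosome 11 (Abca8b, Abca8a, Abca9 and Abca6, with Abca5 as the fifth) and all 3 of a run on chromosome 7 (Abca14, Abca15 and Abca16). In all, 15 members lie in 5 such runs of neighbours, and the run of Abcb1a, Abcb1b and Abcb4 was the only one with all its genes detected besides Abca17 and Abca3 on chromosome 17.

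Subfamilies D, E and F stood close to 0. Abcd3, an abundant peroxisomal membrane protein that imports branched fatty acids and bile acid intermediates, read 8813 on the LPS array and 9988 on the control array (-0.14 ± 0.040). Abcd4, which serves lysosomal cobalamin transport, was at 0.0093 ± 0.040. Abcd2 was detected on neither array. Abce1, which splits ribosomes for reuse, read 8038 with LPS and 8780 in control cells (-0.083 ± 0.040). Abcf1, which binds the translation initiation factor eIF2, was at -0.023 ± 0.027, Abcf2 at 0.053 ± 0.040 and Abcf3 at 0.023 ± 0.040. All 7 detected members of these subfamilies thus lay within 0.25 of 0 (75.5% of all genes did).

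In subfamily G, Abcg2, the apical drug and urate pump also called breast cancer resistance protein, read 706 on the LPS array and 719 on the control array (0.017 ± 0.075). Abcg4, a sterol carrier of neural tissue, was at -0.11 ± 0.075. The sterol exporters were not detected: Abcg1, a partner of Abca1 in cholesterol efflux from macrophages, and Abcg5 and Abcg8, which pair to return plant sterols to the gut lumen, read between 3.29 and 4.11 on both arrays, under the lowest signal well above background. Abcg3 was not detected either. An undetected probe gives no information on whether the gene differed.

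**Figure D3:**
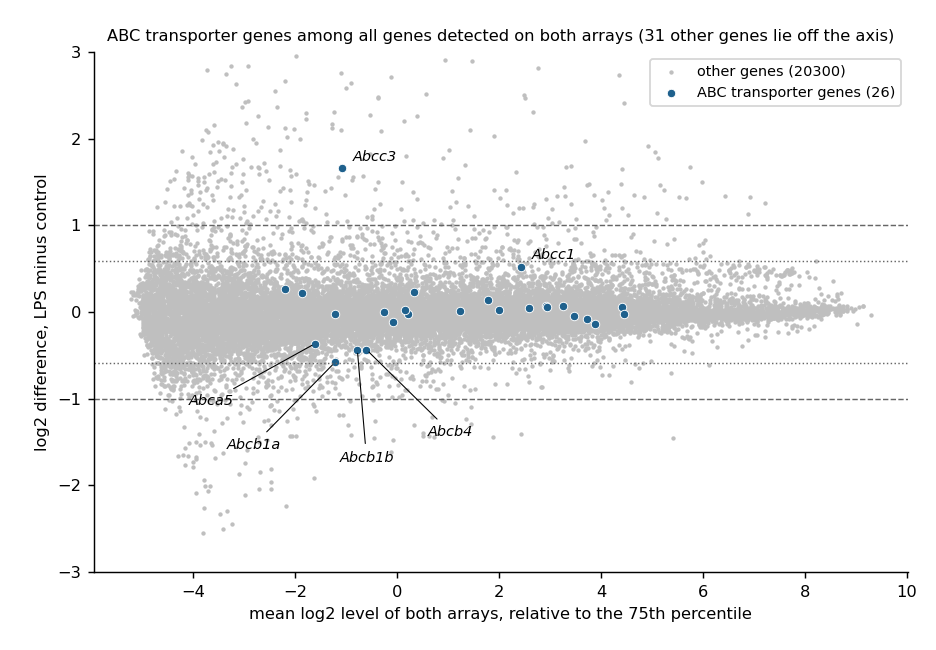
Log2 difference, LPS minus control, against mean log2 level (relative to the 75th percentile) for 26 ABC transporter genes (blue) and 20300 other genes (grey) detected on both arrays, with lines at 1.5-fold and 2-fold and 31 other genes beyond the axis. Abcc3 lies above the 2-fold line, Abcc1 just under the upper 1.5-fold line, and Abcb1a, Abcb1b, Abcb4 and Abca5 below 0 on the dim side.

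Members with several probes give a further view of how far readings of 1 gene vary. Probes at different positions may read different transcripts, which was not tested. In 7 members more than 1 probe was detected on both arrays, and in 5 of these (Abca2, Abca5, Abcb8 and Abcf1 among them) all such probes shared a sign. The probes of Abca5 stood at -0.36 and -0.54, and those of Abca2 at 0.24 and 0.23. In Abcc5, the brightest probe was at 0.13 and the others at 0.24, 0.23 and -0.32, the last a dim probe with signals of 71.6 on the LPS array and 91.9 on the control array. In Abcg4, 2 probes at -0.11 and -0.13 were joined by another at 0.19, which overlaps the probe at -0.13 by 44 bases on chromosome 9. Both are given here to base 30, on the minus strand of mm9, with the shared stretch in capitals, beside a like pair of Abcc8 probes.
Abcg4 probe at chr9:44081302-44081361: tgtatctgccccaggtTCTTCTCATTACAC
Abcg4 probe at chr9:44081286-44081345: TCTTCTCATTACACAGAGACCAGTTGTATT
Abcc8 probe at chr7:53359921-53359980: agcgtgccgccccGCACCTCACTTGCTTGC
Abcc8 probe at chr7:53359908-53359967: GCACCTCACTTGCTTGCCTAGTGTTTCGTA
The first Abcg4 probe read 264 with LPS and 298 in control cells, and the shifted one 187 with LPS and 169 in control cells, so nearly the same target gave opposite signs. The 2 Abcc8 probes share 47 bases. The brighter read 150 with LPS and 129 in control cells, while the shifted one read 4.17 with LPS and 13.6 in control cells and was well above background on neither array. Across the array, 243 pairs of detected probes of 1 gene name that overlap by at least 40 bases stood a median of 0.044 apart in log2 difference. The 48 pairs with a dimmer probe of 100 to 1000 units stood 0.082 apart at the median and 0.19 at the 90th percentile. Abca17 at 0.22 and Abcc8 at 0.27 stood not far above that spread. Abcb1a at -0.58, Abcb1b at -0.44 and Abcb4 at -0.43 lay farther from 0, each on 1 spot.

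**Figure D4:**
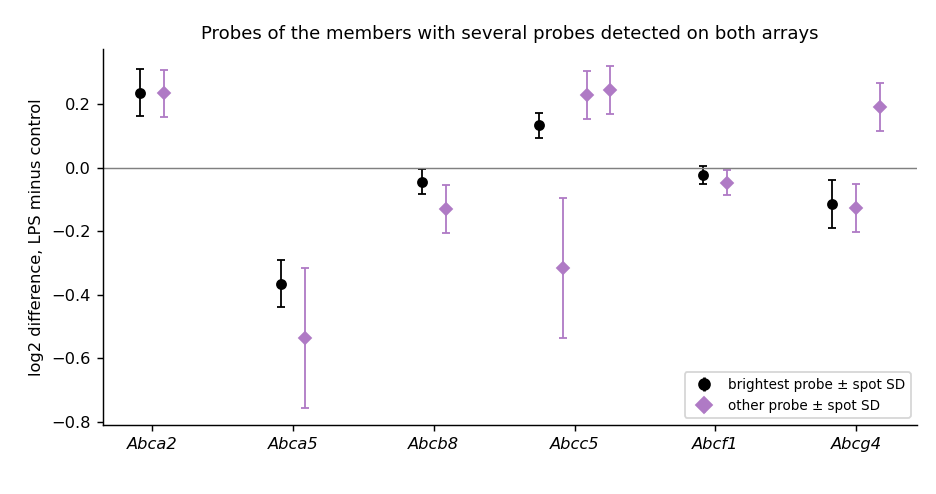
Log2 difference, LPS minus control, of each probe detected on both arrays for 6 ABC transporter genes with more than 1 such probe. Circles are the brightest probe and diamonds the others, with the spot SD. Probes of Abca2 lie together at 0.24 and 0.23, while those of Abcc5 and Abcg4 lie on both sides of 0.

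Genes that work with the transporters came from lists of related genes. The 3 ABC genes with other names were read as well. Tap2, a subunit of the peptide carrier that feeds MHC class I, read 3257 with LPS and 2486 in control cells (0.43 ± 0.040). Its partner Tap1 was dim, with a mean spot signal of 22.4 on the LPS array and 16.7 on the control array, and was called detected with LPS alone, so no fold is given. Cftr, the apical chloride channel, was dim, at -0.38 ± 0.22, and at -0.11 with normexp. Of 15 detected nuclear receptors and factors known to control ABC genes, 1 was at least 1.5-fold higher (3.59% of all genes were) and none 1.5-fold lower (2.68% of all genes were), with a median of 0.096. This count is close to that of the array as a whole. That gene was Ahr, the aryl hydrocarbon receptor, which read 16667 with LPS and 11006 in control cells (0.64 ± 0.027). The lowest was Hnf4a at -0.21 ± 0.040. The xenobiotic receptor gene Nr1i2 and the bile acid responder Nr0b2 were detected on neither array.

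Among 12 detected cholesterol and bile acid partners, 1 was at least 2-fold higher (1.46% of all genes were) and none 2-fold lower (0.571% of all genes were), with a median of -0.060. A single gene in a list of this length does not set the list apart from the array. Slc10a2, the apical sodium-dependent bile acid importer of the ileum, had a signal of 159 on the LPS array and 24.6 on the control array. It was 6.69-fold higher, at 2.74 ± 0.22, and at 1.35 with normexp. Slc51a, a subunit of the basolateral bile acid exporter, was well above background in control cells alone. Its signal was 3.61 on the LPS array and 30.3 on the control array, with a bound of 1.74-fold lower in LPS-treated cells. Its partner Slc51b was detected on neither array. The lowest of the detected partners was Apoe at -0.59 ± 0.075, 1.51-fold lower, and with normexp it was at -0.47, under 1.5-fold. Of 13 detected peroxisomal partners of subfamily D none was 1.5-fold higher (3.59% of all genes were) or lower (2.68% of all genes were). The absence of such a gene in a list of this length cannot show whether the list differed from the array. Of the 13, 10 were above 0 (44.5% of all genes were). The median was 0.13, with a range from Ehhadh at -0.080 to Acsl1 at 0.44. Acox2, a peroxisomal oxidase of bile acid intermediates, was well above background with LPS alone. Its signal was 42.4 on the LPS array and 11.1 on the control array, with a bound of 2.75-fold higher. All 15 partners of the mitochondrial members in haem and iron-sulphur synthesis were detected on both arrays (65.8% of gene names with an NM accession, and 58.7% of all gene names, were). These 15 lay within 0.25 of 0 (75.5% of all genes did, a share not matched for brightness), the lowest being Fech at -0.14 ± 0.040. The 11 translation partners lay between -0.20 (Eif2s1) and 0.31 (Pelo). The potassium channel genes Kcnj8 and Kcnj11, which pair with the sulphonylurea receptors, were detected on neither array, while Abcc8 was read at 150 with LPS and 129 in control cells.

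As a check of the label, 10 of 11 epithelial and colon markers were detected on both arrays, keratin genes Krt8, Krt18 and Krt19 among them, and Cdx2 was on neither. The differences of the 10 ran from -1.45 (Lgals4) to -0.0070 (Cdh1), all below 0 (11274 of all 20328 genes were), with a median of -0.25. Vil1 and Krt20, genes of mature enterocytes, stood at -0.72 and -0.92, and at -0.63 and -0.61 with normexp. Their part in the lower Abcb1a, Abcb1b and Abcb4 values was not tested. Of 8 leukocyte markers only Cd68 and Cd3e were detected on both arrays, and Lyz2, Tyrobp and Laptm5 on neither. Cd68 read 1273 with LPS and 1064 in control cells, and Cd3e read 1117.5 with LPS and 1148.8 in control cells. Adgre1, a macrophage marker, was detected with LPS alone, with a signal of 30.3 on the LPS array and 11.6 on the control array, at least 1.96-fold higher. Ptprc, the pan-leukocyte marker, was detected in control cells alone, with 14.7 on the LPS array and 52.9 on the control array, at least 3.03-fold lower. Of 7 fibroblast and endothelial markers 4 were detected on both arrays. The highest difference was that of Col1a2 at 0.91 ± 0.22, and at 0.52 with normexp, under 1.5-fold. Its signal was 110 on the LPS array and 60.7 on the control array. The endothelial marker Kdr read 5362 with LPS and 5359 in control cells (0.046 ± 0.040). Pdgfrb was detected with LPS alone, with a signal of 26.8 on the LPS array and 3.58 on the control array, at least 1.73-fold higher, and Cdh5 and Dcn were detected on neither array.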

How the data were processed

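Total RNA of CMT93 cells was read on 2 one-colour (Cy3) Agilent arrays, on 1 slide with 1 scan. The deposited intensity of each spot comes from Agilent Feature Extraction 10.10.1.1, background-subtracted and detrended within each array, per the file headers. The flags for signal well above background (0 or 1, given without a unit as another kind of value) are the software's own, per the file headers. The treatment text stands on both samples, and its dose and time were read as those of the LPS sample.

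Spots of control probes and 223 outlier spots were dropped, log2 intensity was centred on each array's 75th percentile over non-control spots, spots of a probe were averaged, and a gene took its brightest probe by array gene name. Of 73 member probes, 68 matched the RefSeq table of GRCm38.p6 by accession, all under the same symbol. With 1 array a group there was no test, and members were described by size at 1.5-fold and 2-fold. Where 1 array alone detected a probe, the bound (at least N-fold) compares it with the lowest signal well above background on the other array, or the dim signal itself if that is higher. The bound depends on the background correction. With normexp it was smaller for Abca12 and Abcc6, and it is not given with normexp for partner and marker genes. A few genes are counted but not reported here by name or in the plots; the rest of the members could be named. Other genes came from lists of partners and markers. Members and lists were chosen with earlier results of these data known. The computation of the size calls was tested on simulated data with known differences.

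The 10 alternatives were quantile scaling, cyclic loess (span 0.7), median centring, the 75th percentile over detected probes alone, normexp (offset 50), background-subtracted signal with a floor of 1, the median over probes, no filter, a looser flag and the brighter genes only. Python 3.11.15, numpy 2.4.6, pandas 2.3.3, matplotlib 3.10.9, R 4.3.3 and limma 3.58.1 were used.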

Additional observations from a re-analysis of the deposited data

How the results depend on the processing

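Of the 28 members detected on both arrays, 23 kept their sign under all alternatives that gave them a value. The exceptions were Abcb6, Abcb9, Abcc10, Abcd4 and Abcf3, whose values as reported ran from -0.021 to 0.023. Abcc3 ranged from 1.34 to 1.71 over the 9 alternatives that kept it, Abcc1 from 0.50 to 0.54, Abcb1a from -0.60 to -0.46, Abcb1b from -0.45 to -0.36 and Abcb4 from -0.45 to -0.39. The count at least 1.5-fold lower was 0, but 1 with floored background-subtracted signal and 1 with the 75th percentile of detected probes, in both cases Abcb1a. Without the background filter, 50 members entered, 2 were at least 2-fold higher and 2 lower, 2 were at least 1.5-fold higher and 5 lower, and the medians were 0.089 over all members, 0.090 in subfamily C and 0.12 in G. The brighter genes alone left 14 members, 0 at least 2-fold higher and 0 at least 1.5-fold higher, since Abcc3 lies under that limit, with a median of 0.13 in C and no member of G. The median of C was 0.15 with normexp, and that of A was 0.15 with the looser flag. No scaling moved the median of all genes by 0.1. No paired analysis was possible because each group had 1 array. No library could be left out for the same reason. Abcc3 has 1 spot on 1 probe, so the number of arrays and spots limits its precision.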
